A study of Mus musculus with 14 samples.

Results

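RNA of mouse CD4+ T cells treated with interferon alpha was compared between an inhibitor labelled TYK2 (compound IFN.2485) and a pair of broader inhibitors, labelled JAK1/2 (IFN.6221) and PAN (IFN.6222, a label read as all JAK kinases). These are 6 of the series' 14 arrays, 2 per inhibitor, taken at 2 h and 8 h. The cells were isolated by negative selection from the spleens of 6-week-old male C57BL/6 mice and activated for 48 h with CD3/CD28 beads. Every culture then received interferon alpha at 100 U/ml and 1 inhibitor at its IC80, and its RNA went onto 1 Affymetrix Mouse Gene ST array per culture. The compounds are known here only by these codes and target labels. The inhibitors labelled JAK1 (IFN.3404), JAK2 (IFN.3885) and JAK3 (IFN.6226 and IFN.6228) make up the other 8 arrays. There was 1 array per inhibitor and time, the labels do not give the number of mice per culture or the concentrations, and cultures without inhibitor were not analysed here.

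The type I interferon receptor has the chains IFNAR1, which carries the kinase TYK2, and IFNAR2, which carries JAK1. Interferon binding activates both kinases, which phosphorylate STAT transcription factors. A complex that holds STAT2 and IRF9 binds interferon-stimulated response elements (ISRE), while STAT dimers bind shorter GAS elements. JAK1 also works with JAK3 at common gamma chain receptors, which bind interleukin-2 or interleukin-7, and TYK2 also serves the receptors for interleukin-12, interleukin-10 and interleukin-27.

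Promoter sequences are shown for Il7r and Itga4, the genes with the smallest p in the comparison, and for Ifit1 and Ifit3, typical interferon targets, so that the presence or absence of these elements can be read directly. Each is the 250 bases before the RefSeq start in GRCm38.p6, 5′ to 3′ on the gene's strand, with matches in capitals: TTTCNNTTTC or its reverse complement GAAANNGAAA for the core of an ISRE, and TTCNNNGAA, which is its own reverse complement, for a GAS. The Il7r window is chr15:9529877-9530126 on the minus strand, and the others are on the plus strand, Itga4 at chr2:79255176-79255425, Ifit1 at chr19:34640639-34640888 and Ifit3 at chr19:34583279-34583528.
Il7r: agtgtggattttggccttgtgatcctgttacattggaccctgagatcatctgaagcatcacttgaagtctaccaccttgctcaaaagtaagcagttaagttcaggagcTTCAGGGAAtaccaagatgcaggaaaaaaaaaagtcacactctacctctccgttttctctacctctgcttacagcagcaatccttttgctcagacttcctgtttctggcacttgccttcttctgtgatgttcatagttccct
Itga4: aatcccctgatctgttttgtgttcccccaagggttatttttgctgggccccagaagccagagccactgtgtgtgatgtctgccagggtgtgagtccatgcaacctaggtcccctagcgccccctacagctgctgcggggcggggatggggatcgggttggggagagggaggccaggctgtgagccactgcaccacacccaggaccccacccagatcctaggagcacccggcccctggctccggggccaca
Ifit1: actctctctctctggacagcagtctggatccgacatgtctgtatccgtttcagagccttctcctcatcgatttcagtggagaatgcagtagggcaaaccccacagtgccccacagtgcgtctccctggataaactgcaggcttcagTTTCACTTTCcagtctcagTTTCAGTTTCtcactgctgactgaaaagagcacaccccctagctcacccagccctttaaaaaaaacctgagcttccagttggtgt
Ifit3: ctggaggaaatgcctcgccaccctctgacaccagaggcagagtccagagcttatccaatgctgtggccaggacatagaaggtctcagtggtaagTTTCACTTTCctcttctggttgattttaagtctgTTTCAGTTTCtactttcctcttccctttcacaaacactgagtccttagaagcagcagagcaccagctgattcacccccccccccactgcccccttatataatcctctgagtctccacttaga

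Ifit1 and Ifit3 each held 2 ISRE cores and no GAS match. Il7r held 1 GAS match, with its first base at -142 from the start, and Itga4 held neither motif. Of 32851 RefSeq promoter windows of the same length, 2.98% held an ISRE core and 7.02% a GAS match. A match describes the letters in the window and is not evidence of binding.

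Il7r was the gene lower with the TYK2 inhibitor over both times. It encodes the interleukin-7 receptor alpha chain, through which T cells receive survival signals. On the log2 scale its intensity with the TYK2 inhibitor was 11.12 at 2 h and 11.36 at 8 h. With the JAK1/2 inhibitor it was 11.61 and 11.76, and with the PAN inhibitor 11.66 and 11.84. The TYK2 arrays were the lowest of all 7 inhibitors at each time, since the other 4 inhibitors gave Il7r 11.40 to 11.62 at 2 h and 11.60 to 11.71 at 8 h. The fitted difference from the mean of the comparators, with time in the model, was -0.48 (SE 0.07, 95% interval -0.62 to -0.34), or 1.40-fold lower (limma, adjusted p = 0.0453). It was -0.45 against JAK1/2 alone (adjusted p = 0.143) and -0.51 against PAN alone (adjusted p = 0.113), and JAK1/2 differed from PAN by -0.06. Of 11761 genes tested, Il7r was the only one that passed, a percentage called of 0.00850, and 0 genes were higher. Fewer cells of a kind and less RNA per cell cannot be told apart in such bulk samples. At an unadjusted p under 0.05, 376 genes were lower (3.20%) and 241 were higher (2.05%). Against JAK1/2 alone 0 genes passed, with 330 lower (2.81%) and 412 higher (3.50%) at an unadjusted p under 0.05 (limma). Against PAN alone 0 passed, with 209 lower (1.78%) and 64 higher (0.544%), and these comparisons share the TYK2 arrays. The Il7r call was lost when any 1 of the 6 compared arrays was left out (adjusted p from 0.197 without the PAN 8 h array to 1 without the TYK2 2 h array), while the difference ranged from -0.54 to -0.42.

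Itga4, St8sia6, Ccr4 and Ccr9 had the next smallest p, and none passed over both times. Itga4, the alpha chain of the integrin VLA-4 used in lymphocyte homing, read 10.39 at 2 h and 11.15 at 8 h with the TYK2 inhibitor, against 10.89 and 11.59 with JAK1/2 and 10.89 and 11.50 with PAN. Its difference was -0.45 (SE 0.07, limma adjusted p = 0.0683). St8sia6, a sialyltransferase, read 9.28 and 9.95 with the TYK2 inhibitor, 9.79 and 10.50 with JAK1/2 and 9.79 and 10.52 with PAN, a difference of -0.53 (SE 0.09, adjusted p = 0.117). For both genes the TYK2 array was the lowest of all 7 inhibitors at each time. The differences of Itga4 and St8sia6 were -0.47 and -0.53 against JAK1/2 alone, and -0.42 and -0.54 against PAN alone.

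Ccr9 and Ccr4 are chemokine receptors. Ccr9, which directs T cells to the small intestine, read 7.57 and 7.79 with the TYK2 inhibitor, 8.22 and 8.43 with JAK1/2 and 8.14 and 8.59 with PAN. This difference of -0.66 (SE 0.14, limma adjusted p = 0.807) was not particular to the TYK2 inhibitor at 2 h, where the JAK2 inhibitor gave Ccr9 7.55. Ccr4, a receptor of Th2 and skin-homing T cells, read 11.57 and 10.59 with the TYK2 inhibitor, 11.99 and 10.94 with JAK1/2 and 11.82 and 11.02 with PAN, a difference of -0.36 (SE 0.08, adjusted p = 0.807).

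**Figure D1:**
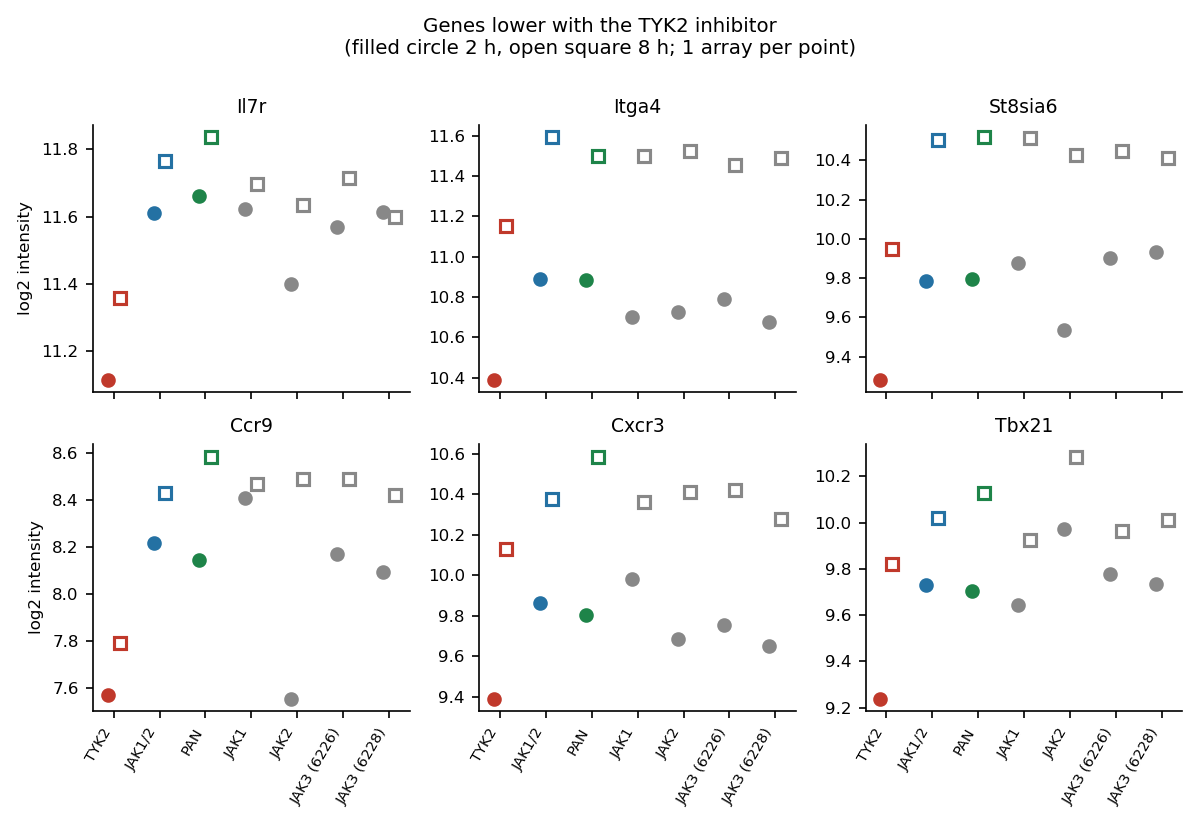
Log2 intensity of Il7r, Itga4, St8sia6, Ccr9, Cxcr3 and Tbx21 for each inhibitor, with filled circles for 2 h, open squares for 8 h and 1 array per point. The TYK2 array lies below the JAK1/2 and PAN arrays at both times in each panel; Il7r alone passed over both times, and all 6 genes passed at 2 h.

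At 2 h alone, 82 genes were lower with the TYK2 inhibitor (0.697% of those tested) and 43 were higher (0.366%), together 1.06%. At an unadjusted p under 0.05 the shares were 5.63% and 3.79%. Here 1 TYK2 array stood against 1 array of each comparator. The spread came from differences between inhibitors of 1 class (JAK1/2 with PAN, and the JAK3 pair, 2 residual degrees of freedom). No biological replicate therefore stands behind these calls. With either comparator array left out, the spread rests on the JAK3 pair alone, so a call can be lost or gained with little change in the difference. The count was 60 without the JAK1/2 array and 351 without the PAN array. It was 57 after quantile normalization and 5 without the variance trend, and centring each array on its median gave 61 lower and 59 higher. TYK2 lay below both comparators in 37.6% of all genes tested at 2 h and above both in 32.7%. Of the 82 lower genes, 62 also lay below both comparators at 8 h, where 30.1% of all genes did. Of the 43 higher genes, 26 lay above both at 8 h, where 28.0% of all genes did. Over all genes tested, TYK2 lay below both comparators at both times in 16.0% and above both in 14.9%. It was the lowest of all 7 inhibitors at both times in 3.20% of genes and the highest in 1.30%. Among the called genes 36 were lowest at both times. The calls used the same 2 h values, so this count is a description and cannot be weighed against the share of all genes.

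The 82 lower genes included surface receptors and transcription factors of T cells. Il7r differed by -0.52 at 2 h (limma adjusted p = 1.91e-05) and Cd27, a costimulatory receptor of the TNF receptor family, by -0.53 (adjusted p = 1.91e-05). Cd27 read 11.08 with the TYK2 inhibitor, 11.66 with JAK1/2 and 11.56 with PAN at 2 h, and 11.96, 12.04 and 12.11 at 8 h. The gap for Cd27 was thus -0.11 at 8 h, and the test of 8 h minus 2 h gave 0.42 (unadjusted p = 0.000307, limma), which did not pass after adjustment over all genes. No gene passed this test, and at an unadjusted p under 0.05 the TYK2 difference was more negative at 8 h in 1.11% of genes and more positive in 0.910%.

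Cxcr3, the chemokine receptor of Th1 cells, read 9.39 with the TYK2 inhibitor at 2 h, 9.86 with JAK1/2 and 9.80 with PAN. At 8 h the Cxcr3 values were 10.13, 10.38 and 10.59. Its 2 h difference was -0.44 (SE 0.09, limma adjusted p = 0.00711). Tbx21, which encodes the Th1 factor T-bet, read 9.24 against 9.73 and 9.71 at 2 h and 9.82 against 10.02 and 10.13 at 8 h, and its 2 h difference was -0.48 (SE 0.09, adjusted p = 0.00241). The TYK2 array was the lowest of the 7 inhibitors for Cxcr3 and Tbx21 at each time.

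Zbtb7b, which encodes the CD4 lineage factor ThPOK, read 7.92 with the TYK2 inhibitor at 2 h, 8.65 with JAK1/2 and 8.50 with PAN. By 8 h its values were 9.62, 9.75 and 9.79. The Zbtb7b difference of -0.65 at 2 h (SE 0.11, limma adjusted p = 0.000374) thus stood beside -0.15 at 8 h. Myb, a transcription factor of lymphoid progenitors and T cells, differed by -0.40 at 2 h (adjusted p = 0.0179), from 9.39 with the TYK2 inhibitor against 9.78 and 9.80.

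Other receptors lower at 2 h were Nrp1, a semaphorin receptor (-0.54, adjusted p = 0.00983), Cd101 (-0.53, adjusted p = 0.00888), Slamf6 (-0.30, adjusted p = 0.0152), Ccr8 (-0.35, adjusted p = 0.0152), Il10rb, the interleukin-10 receptor chain that pairs with TYK2 (-0.34, adjusted p = 0.0343), and Ptgir, the prostacyclin receptor (-0.65, adjusted p = 0.000374). The calls of Nrp1 and Il10rb were lost without the JAK1/2 array (adjusted p = 0.257 and 0.394), and those of Slamf6, Ccr8 and Il10rb after quantile normalization (0.0647, 0.0715 and 0.0921). Cd28, the costimulatory receptor engaged by the beads, differed by -0.28 (adjusted p = 0.023), from 11.87 with the TYK2 inhibitor to 12.12 with JAK1/2 and 12.18 with PAN, and its call was lost after quantile normalization (0.0533). Over 8 CD4 T cell markers tested, the median difference was -0.12 over both times, Cd28 alone passed at 2 h, and 5 had the TYK2 array lowest of 7 at each time. Over all genes tested, 0.697% were lower at 2 h and 3.20% had the TYK2 array lowest of 7 at both times. Cd4 itself read 11.50 against 11.72 and 11.62 at 2 h and 11.87 against 11.97 and 12.03 at 8 h.

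By size alone, 4 genes lay at least 1.5-fold below both comparators at 2 h (0.0340%) and 2 lay above (0.0170%). Those below were Myl1, Trps1, Ptgir and Cpa3, and those above were Srsy and Mir680-1. Trps1, a GATA-type repressor, read 7.19 with the TYK2 inhibitor, 7.89 with JAK1/2 and 7.87 with PAN at 2 h (-0.69, limma adjusted p = 0.000374), and 6.44, 6.55 and 6.72 at 8 h. Srsy, a gene of the Y chromosome region, read 7.87 against 7.16 and 6.48 at 2 h but 7.05 against 7.50 and 6.89 at 8 h. Mir680-1 read 7.84 against 7.14 and 6.97 at 2 h and 6.88 against 7.27 and 6.85 at 8 h, so its TYK2 array no longer lay above both.

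Myl1 is a muscle myosin light chain, and its value turned on the JAK1/2 arrays. Myl1 read 5.66 with the TYK2 inhibitor, 8.37 with JAK1/2 and 6.29 with PAN at 2 h, and 6.74, 7.68 and 6.73 at 8 h. Its 2 h difference was -1.67 (limma adjusted p = 0.00165), -0.63 without the JAK1/2 array (0.106) and -2.71 without the PAN array. Of 18 skeletal muscle markers, 11 passed the filter on dim genes, and their median difference was -0.60 against JAK1/2 and -0.02 against PAN. The mean level over the 18 markers was 6.36 with the TYK2 inhibitor, 7.10 with JAK1/2 and 6.45 with PAN at 2 h, and 6.62, 7.09 and 6.55 at 8 h. The JAK1 8 h array, outside the comparison, held 7.003. The part of muscle RNA in other differences from JAK1/2 was not tested.

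**Figure D2:**
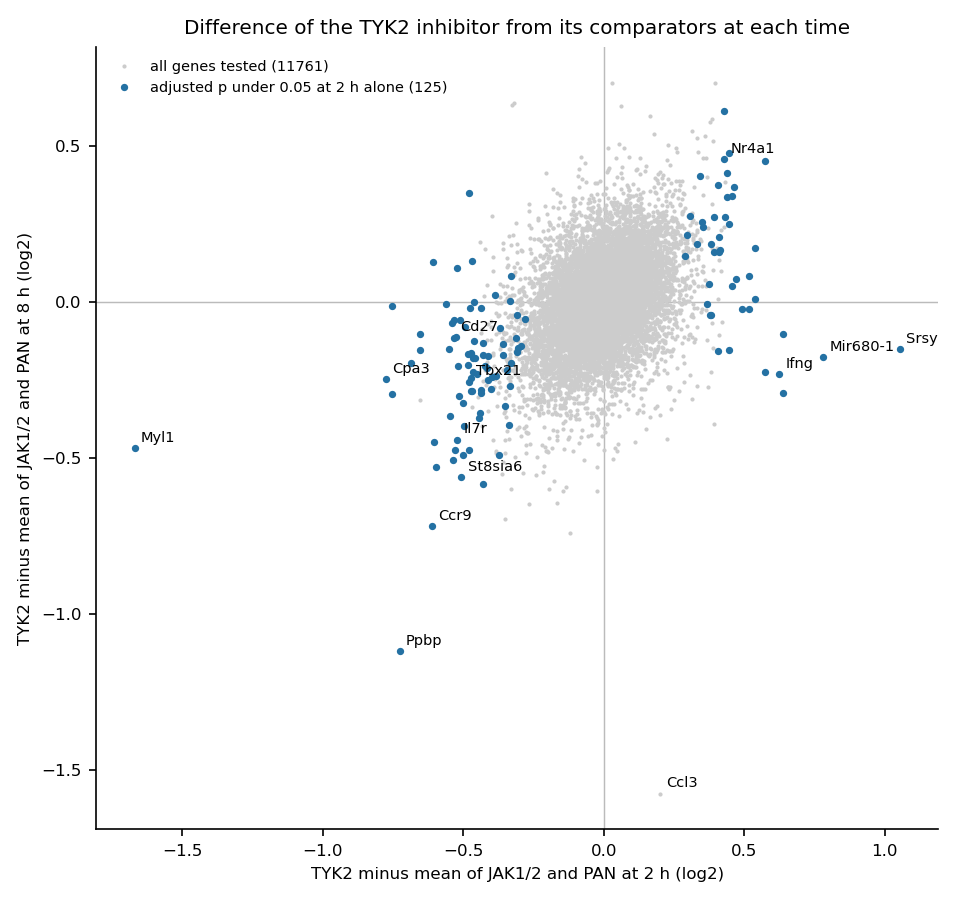
Difference of the TYK2 inhibitor from the mean of JAK1/2 and PAN at 2 h (horizontal axis) and 8 h (vertical axis), on the log2 scale, for the 11761 genes tested. Blue points are the 125 genes that passed at 2 h; 62 of the 82 lower ones lay below both comparators at 8 h as well, and Ifng, Srsy and Mir680-1 lay below 0 at 8 h.

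Nr4a1, Nr4a2, Nr4a3, Egr1 and Egr2, immediate early genes of T cell activation, were higher with the TYK2 inhibitor at 2 h. Of 23 immediate early genes tested, these 5 were higher and 0 lower at an adjusted p under 0.05, and 19 lay above both comparators, where 0.366% of all genes were called higher and 32.7% lay above both. Their median difference was 0.21 at 2 h and -0.02 at 8 h, against -0.01 and 0.00 over all genes. Nr4a1, a nuclear receptor induced by antigen receptor signals, read 11.60 with the TYK2 inhibitor, 11.15 with JAK1/2 and 11.20 with PAN at 2 h (0.43, SE 0.08, limma adjusted p = 0.00109). At 8 h Nr4a1 read 9.12, 8.47 and 8.84 in the same order, and the TYK2 array again lay above both comparators.

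The related Nr4a3 read 11.28 against 10.84 and 10.74 at 2 h (0.49, limma adjusted p = 0.00056) but 7.57 against 7.35 and 7.83 at 8 h. Nr4a2 read 9.10 against 8.62 and 8.42 at 2 h (0.57, adjusted p = 0.00145) and 6.85 against 7.17 and 6.98 at 8 h, where TYK2 lay below both. For Nr4a2 the 8 h minus 2 h test gave -0.80 (unadjusted p = 0.000841), which did not pass over all genes. Egr2 differed by 0.41 (adjusted p = 0.012) and Egr1 by 0.37 (adjusted p = 0.0233) at 2 h, both zinc finger factors induced through MAP kinase signalling. Egr2 read 10.63 against 10.16 and 10.28, and Egr1 10.16 against 9.83 and 9.75.

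Ifng, the cytokine interferon gamma, read 7.64 with the TYK2 inhibitor at 2 h, 7.12 with JAK1/2 and 6.91 with PAN (0.63, SE 0.13, limma adjusted p = 0.00309). At 8 h the order had changed, with 6.15 against 6.55 and 6.21. Across the other 4 inhibitors Ifng read 6.94 to 7.52 at 2 h, so the JAK2 inhibitor came close to the TYK2 array. Tbx21 and Ifng, both Th1 genes, therefore lay on opposite sides of the comparators at 2 h.

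Of 37 STAT5-induced genes tested, 3 were higher (Ifng, Cish and Gadd45b) and 1 was lower (Ccr4) at 2 h, where 0.366% of all genes were higher and 0.697% lower. The Ccr4 and Gadd45b calls were lost without the JAK1/2 array, where the spread rests on the JAK3 pair alone. The Ccr4 difference went from -0.34 to -0.25, while that of Gadd45b stayed at 0.37. The group's median difference was 0.08 at 2 h and -0.09 at 8 h. Cish, a feedback inhibitor that STAT5 switches on, read 10.13 with the TYK2 inhibitor, 9.89 with JAK1/2 and 9.62 with PAN at 2 h (0.38, limma adjusted p = 0.0452). At 8 h its values were 8.13, 8.26 and 8.07, so TYK2 lay between the comparators. The inhibitors outside this comparison spanned a wider range of Cish, 8.98 to 10.61 at 2 h. Without the PAN array the 2 h call of Cish was lost, with a difference of 0.25. This call was also lost after quantile normalization, after cyclic loess and with robust variance moderation. The Ccr4 call was lost after quantile normalization as well, and that of Gadd45b after cyclic loess. Without the variance trend none of the STAT5-induced calls was kept.

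Other feedback inhibitors were not called. Socs2 read 10.42 against 10.20 and 10.12 at 2 h and 8.80 against 8.40 and 8.69 at 8 h, above both each time, with a fitted difference of 0.26 (95% interval 0.03 to 0.48, limma adjusted p = 0.938). Socs1 read 9.73 against 9.62 and 9.48 at 2 h and 8.80 against 9.04 and 8.87 at 8 h. Myc, a STAT5 target that drives growth, read 11.16 against 11.06 and 11.11 at 2 h and 10.28 against 10.56 and 10.65 at 8 h, where its difference was -0.33 and did not pass.

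**Figure D3:**
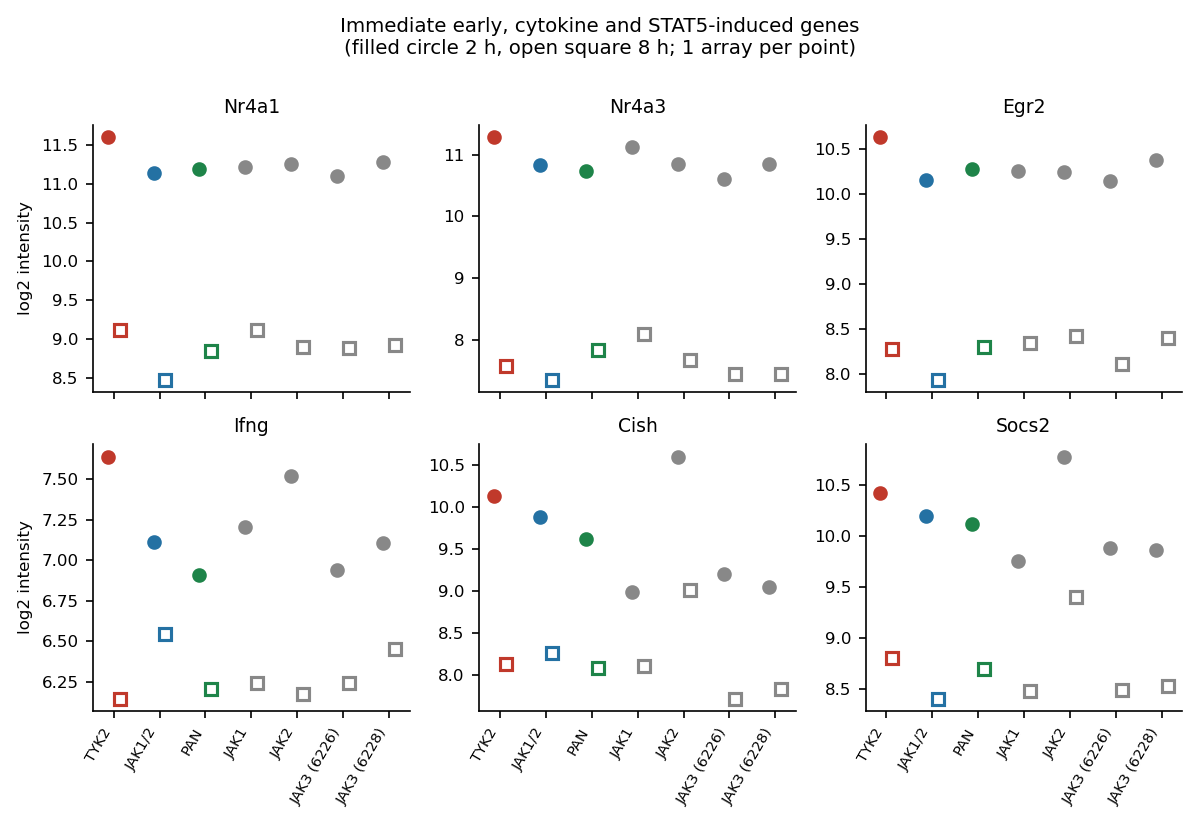
Log2 intensity of Nr4a1, Nr4a3, Egr2, Ifng, Cish and Socs2 for each inhibitor, with filled circles for 2 h, open squares for 8 h and 1 array per point. At 2 h the TYK2 array is above JAK1/2 and PAN in every panel, while at 8 h it lies between or below them for Nr4a3, Egr2, Ifng and Cish.

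Every culture received interferon alpha, and no member of the type I interferon response passed the adjusted threshold over both times. How far each inhibitor lowered this response cannot be read here, since no culture without inhibitor was analysed. Of 75 listed genes, 66 were tested, with a median difference of -0.11 over both times, -0.04 at 2 h and -0.14 at 8 h. The mean level of the list was 8.96 with the TYK2 inhibitor, 8.96 with JAK1/2 and 9.04 with PAN at 2 h, and 9.70, 9.82 and 9.92 at 8 h. At 2 h, TYK2 lay below both comparators in 29 of the 66 genes and above both in 18, and 1 gene, Slfn1, was lower (-0.31, limma adjusted p = 0.0391). Over all genes 37.6% lay below both and 32.7% above both, near these counts. The Slfn1 call was lost after quantile normalization (adjusted p = 0.107), median centring (0.143) and cyclic loess (0.0584) and without the JAK1/2 array (0.0813). At 8 h it lay below both in 58 genes and above both in 4, where 30.1% and 28.0% of all genes did so. At an unadjusted p under 0.05 at 8 h, 26 members were lower and 1 higher, against 4.57% and 2.28% of all genes, and none passed after adjustment.

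Ifit1, an RNA-binding antiviral protein whose promoter holds the ISRE cores printed above, read 8.87 with the TYK2 inhibitor, 8.82 with JAK1/2 and 9.003 with PAN at 2 h. At 8 h Ifit1 read 9.98, 10.33 and 10.43, a difference of -0.39 (SE 0.08, limma adjusted p = 0.259). Over both times the 95% interval of the Ifit1 difference was -0.72 to 0.28. Ifit3 read 7.15, 7.19 and 7.51 at 2 h and 9.05, 9.43 and 9.63 at 8 h, so the TYK2 array was below both comparators each time, and its interval over both times was -0.93 to 0.25. These intervals are wide beside the gaps, and a p above the threshold does not show that the inhibitors acted alike on these genes.

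Usp18, which strips ISG15 from proteins and dampens receptor signalling, read 9.13, 9.14 and 9.32 at 2 h and 10.53, 10.85 and 10.85 at 8 h with TYK2, JAK1/2 and PAN. Mx1, an antiviral GTPase, read 5.79, 6.04 and 6.23 at 2 h and 7.03, 7.38 and 7.65 at 8 h in the same order. Rsad2, which encodes viperin, read 7.12, 7.25 and 7.33 at 2 h and 8.57, 8.80 and 9.20 at 8 h. In all 3 genes the TYK2 array was the lowest of the compared arrays at each time, with 95% intervals over both times of -0.73 to 0.30, -0.87 to 0.03 and -0.88 to 0.29. Irf7, the factor that amplifies the response, read 9.03, 9.01 and 8.86 at 2 h, with TYK2 highest, and 10.22, 10.48 and 10.47 at 8 h, with TYK2 lowest.

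The remaining inhibitors spanned a wider range of Ifit1. At 2 h Ifit1 spanned 8.82 to 9.003 over TYK2, JAK1/2 and PAN, but 7.21 to 10.33 over the other 4 inhibitors, with the JAK1 inhibitor lowest. At 8 h it spanned 9.98 to 10.43 over these 3 and 8.52 to 10.63 over the other 4, where JAK2 and JAK3 lay at 10.50 to 10.63.

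**Figure D4:**
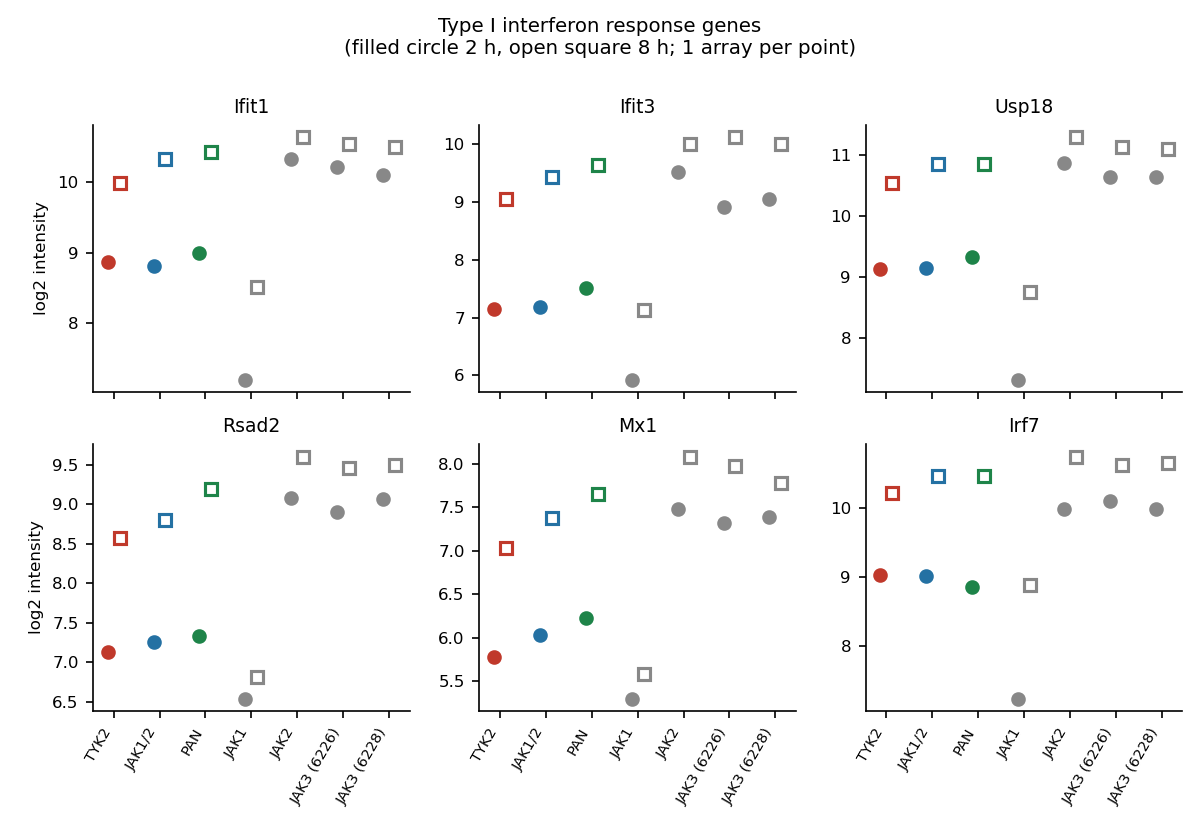
Log2 intensity of Ifit1, Ifit3, Usp18, Rsad2, Mx1 and Irf7 for each inhibitor, with filled circles for 2 h, open squares for 8 h and 1 array per point. At 8 h the TYK2 array lies below JAK1/2 and PAN in every panel, all 3 lie above the JAK1 inhibitor and below the JAK2 and JAK3 inhibitors, and none of these genes passed.

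ISRE cores were found in 14 of the 53 type I list genes with a promoter window (26.4%), beside 3.1% of all genes tested with a window. They stood in 0 of 65 genes lower at 2 h and in 1 of 28 genes higher (3.6%), both near the share of all genes. GAS matches stood in 6 of the 65 lower genes (9.2%), 3 of the 28 higher genes (10.7%) and 7.1% of all genes tested with a window.

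The kinases and the interferon receptor chains gave no call. Jak1 read 11.74, 11.79 and 11.84 at 2 h with TYK2, JAK1/2 and PAN, Jak2 10.98, 10.94 and 11.06, and Tyk2 8.60, 8.78 and 8.62. The fitted differences of Jak1, Jak2 and Tyk2 over both times were -0.07, -0.05 and -0.16, with 95% intervals of -0.20 to 0.07, -0.20 to 0.10 and -0.38 to 0.06. Ifnar1 differed by 0.02 (-0.14 to 0.17) and Ifnar2 by -0.10 (-0.25 to 0.05). Of 21 kinases and receptor chains tested, 16 were negative, the median was -0.10, and Il7r was called over both times.

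Il27ra, the interleukin-27 receptor chain, read 10.02, 10.40 and 10.14 at 2 h and 10.21, 10.47 and 10.59 at 8 h, below both comparators each time (-0.28, SE 0.10, limma adjusted p = 0.882). Il12rb2, the interleukin-12 receptor chain that signals through JAK2 and marks Th1 cells, read 10.03, 10.12 and 9.98 at 2 h and 8.27, 8.75 and 9.004 at 8 h. For Il12rb2 the 8 h difference was -0.61, which did not pass. Il6st, the signalling chain gp130, differed by -0.20 (95% interval -0.36 to -0.03, adjusted p = 0.89), and Il6ra by -0.22 (adjusted p = 0.937).

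STAT mRNAs showed no call. Stat2 read 9.44, 9.17 and 9.23 at 2 h and 9.85, 10.002 and 10.04 at 8 h, above both comparators and then below both. Stat4, Stat5a, Stat5b and Stat3 differed by -0.13, -0.05, -0.05 and -0.04 over both times. Irf9 differed by -0.05 and Irf1 by 0.08, none past the threshold.

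Of 13 Th1 genes, 2 were lower (Tbx21, Cxcr3) and 1 was higher (Ifng) at 2 h, with a median of -0.13 over both times. All 7 Th2 genes tested had negative differences over both times, with a median of -0.21, and 2 were lower at 2 h (Ccr4, Ccr8). At 2 h, 0.697% of all genes were lower and 0.366% higher. Gata3, the Th2 master factor, read 10.66 against 10.92 and 10.86 at 2 h and 10.71 against 10.82 and 10.86 at 8 h (-0.18, limma adjusted p = 0.939). Among 15 genes repressed by STAT5 or expressed in quiescent T cells, 13 were negative and Il7r was called over both times. The 9 regulatory T cell genes were all negative, with a median of -0.07, and the 9 Th17 genes had a median of -0.13, with 0 called in either group.

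In 7 further groups, named here with their sizes, and among interferon gamma GTPases, no gene passed at either time or over both. The median differences over both times were 0.00 for 22 genes of MYC and ribosome biogenesis, 0.02 for 21 of glycolysis and hypoxia, 0.04 for 20 of sterol and fatty acid synthesis and 0.04 for 19 of the ATF4 and unfolded protein response. For cell cycle genes they were -0.01 for 23 of G1 and S phase and 0.01 for 19 of G2 and mitosis, and for 15 of the BCL2 family and cell death -0.07. Interferon gamma GTPases and antigen presentation genes had a median of -0.02 over 23 genes.

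The arrays carried the labelled cell type's markers. Cd3e, which encodes a CD3 subunit, had a mean log2 intensity of 12.4 over the 14 arrays and Cd4 one of 11.8. Of 7 NK cell markers 3 passed the filter on dim genes (Nkg7 at 9.37, Eomes and Gzma, which T cells also express), and Ncr1 lay at 4.47. Of 8 granulocyte markers Mpo passed, at 6.45, and the other levels ran from 4.32 (S100a8) to 6.21 (Camp). Further markers of other cells lay higher. The 7 B cell markers tested ran from 6.52 (Ebf1) to 9.57 (Cd79b). Of 9 dendritic cell markers 3 passed, Cd74 at 10.14, H2-Aa at 9.53 and H2-Eb1 at 8.99. The CD8 T cell markers Cd8a and Cd8b1 lay at 6.81 and 8.99, and Ctss of the macrophage and monocyte markers at 9.25. Whether other cells contributed this RNA was not tested. Medians of the differences were -0.16 for the 3 NK cell markers, -0.06 for 7 B cell markers and 0.16 for 3 of 10 macrophage and monocyte markers that passed the filter, with 0 called.

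At 8 h alone no gene passed, while 538 were lower (4.57%) and 268 higher (2.28%) at an unadjusted p under 0.05. By size, 8 genes lay at least 1.5-fold below both comparators (0.0680%) and 0 above. Leaving out 1 comparator array ended this result: 960 genes passed without the JAK1/2 8 h array and 1579 without the PAN 8 h array, where the spread rests on the JAK3 pair alone. Ccl3, a chemokine of activated T cells, had the largest gap among the genes named here, at 6.11 with the TYK2 inhibitor, 8.25 with JAK1/2 and 7.12 with PAN (-1.58, SE 0.43, limma adjusted p = 0.434). At 2 h Ccl3 read 7.55, 7.51 and 7.18. Gpnmb, a membrane glycoprotein, read 7.39, 8.02 and 8.24 at 8 h and 7.35, 7.51 and 7.44 at 2 h. Ppbp, a platelet chemokine, read 6.79, 8.35 and 7.46 at 8 h and 6.66, 7.93 and 6.84 at 2 h. The JAK2 inhibitor gave lower Ppbp than the TYK2 inhibitor, 6.45 at 8 h and 6.22 at 2 h, while JAK1 and JAK3 gave higher values. The 4 platelet markers tested had a median difference of -0.08 at 8 h, -0.33 at 2 h and -0.20 over both times. The part of platelet RNA in other differences was not tested.

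**Figure D5:**
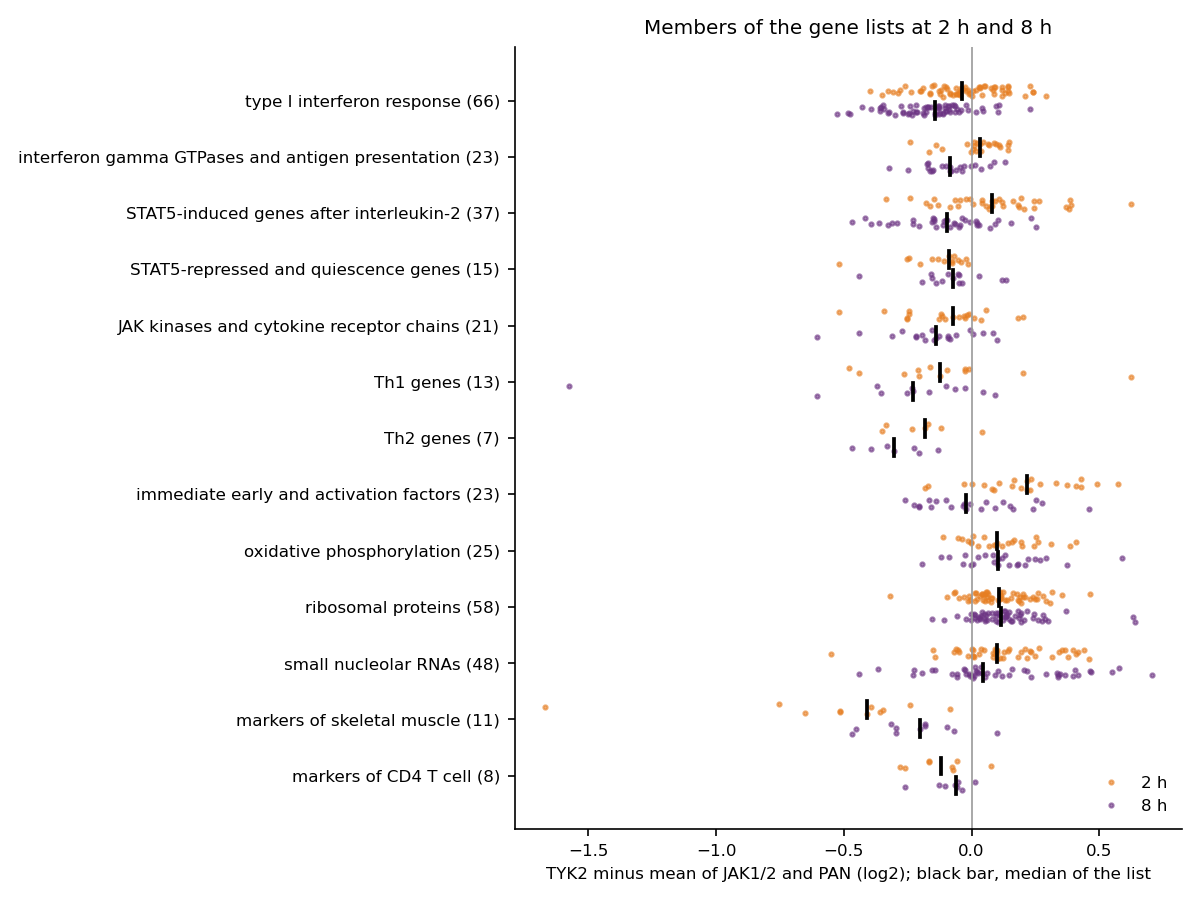
Difference of the TYK2 inhibitor from the mean of JAK1/2 and PAN on the log2 scale (horizontal axis) for the tested members of 13 gene groups, 2 h in orange and 8 h in purple, with a black bar at each median. The type I interferon median is -0.04 at 2 h and -0.14 at 8 h, and that of immediate early genes 0.21 and -0.02; no group was tested as a whole.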

How the data were processed

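Each of 14 cultures was hybridised to 1 Affymetrix Mouse Gene ST array. The authors deposited 1 intensity per probe set and array. Per the submitters' processing notes, Affymetrix Power Tools and RMA were used, and their versions, the background correction and which arrays were normalized as 1 batch are not given in the sources used here. The values are linear, so log2 was taken. Array medians were 109 to 121, and pairwise r was 0.980 to 0.998. For arrays, depth is signal over background, and precision is limited by having 1 array per condition.

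Of 24922 probe sets, 21425 carried 1 gene symbol, 1399 several and 2098 none. The brightest probe set stood for a gene, and 11761 genes with a mean log2 at or above the 40th percentile (6.293) were tested. In R 4.3.3 with limma 3.58.1, 1 additive fit of inhibitor and time over all 14 arrays (lmFit, eBayes, trend=TRUE, 6 residual degrees of freedom) gave TYK2 minus the mean of JAK1/2 and PAN. The residual of this fit holds how inhibitors differ between times, besides noise. Each time alone was fitted on classes of inhibitors (2 residual degrees of freedom), and 8 h minus 2 h on classes by time (4). All p are two-sided, adjusted by Benjamini-Hochberg over all genes, with a threshold of 0.05. Nothing says that cultures came from separate mice, so p-values measure the spread between these arrays and not between mice. With 1 array per inhibitor and time, the technical part of this spread cannot be told apart from differences between inhibitors. Steps were tested on simulated data, with noise around 1 flat mean per gene. These data held no time effect and no differences among the other inhibitors, unlike the real arrays. Of changes of 0.5 on the log2 scale, 65.7% were recovered over both times, 31.3% at 2 h alone and 35.8% at 8 h alone.

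The members and gene lists were chosen with earlier results of these data known. Named genes are the called genes or the 5 with the smallest p, the largest by size at each time, up to 3 per list by moderated t, and listed genes of the JAK, STAT, SOCS and interferon families. Genes named for their 2 h call alone, Myl1 and its muscle group, Il12rb2, Myc, Cd4 and the ribosomal and nucleolar groups were chosen after seeing their values. Alternatives were other scalings, filters, probe set rules, variance models, comparators and left-out arrays. Plots were made with matplotlib 3.10.9.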

Additional observations from a re-analysis of the deposited data

Results flagged for a closer look

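Of the genes named, 9 had the TYK2 inhibitor above both comparators at 2 h and below both at 8 h, an order that 614 of all genes tested showed (5.22%). For Ccl3 the difference at 8 h minus that at 2 h was -1.78 on the log2 scale, for Socs3 -0.536, for Stat2 -0.413, for Irf7 -0.336, for Socs1 -0.335 and for Il2ra, the interleukin-2 receptor alpha chain, -0.203. It was -0.856 for Ifng, whose TYK2 and PAN values at 8 h lay below the filter cutoff, -0.798 for Nr4a2 and -0.405 for Myc. In the class by time fit (limma), 0 of 11761 genes passed after adjustment and at an unadjusted p under 0.05 the difference was more negative at 8 h in 131 (1.11%) and more positive in 107 (0.910%). Socs3, a feedback inhibitor, read 8.53 with the TYK2 inhibitor, 8.17 with JAK1/2 and 8.12 with PAN at 2 h, and 8.02, 8.18 and 8.16 at 8 h. Il2ra read 12.84, 12.80 and 12.76 at 2 h and 11.87, 11.93 and 12.09 at 8 h.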

How the results depend on the processing

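Over both times the count of 1 gene became 2 after quantile normalization, cyclic loess (chosen after seeing the data) or a filter at the 60th percentile, and 3 with inhibitor classes. It became 0 after median centring, with no filter, no variance trend, no time term, either comparator alone or a minimum of 1.5-fold, and 64 (35 lower, 29 higher) with only the 6 compared arrays. Leaving out 1 array gave 0 to 3, with 0 for each compared array and 3 without the JAK1 8 h array. Il7r stayed between -0.54 and -0.42 in all 22 settings and passed in 10. It missed the threshold after median centring (adjusted p = 0.177), with no filter (0.0562), with no variance trend (0.464) and with no time term (1). Itga4 (4 settings) and St8sia6 (5 settings) passed elsewhere.

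At 2 h the count of 125 became 57 after quantile normalization, all shared, 49 after cyclic loess, all shared, 50 with no filter and 5 with no variance trend. Median centring gave 120, split 61 lower and 59 higher against 82 and 43. Leaving out 1 comparator gave 60 to 351, sharing 54 and 112 with the 125. At 8 h the count of 0 became 1 after median centring and 24 after cyclic loess, and leaving out 1 array gave 0 to 1579.

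Leaving out 1 array, signs turned without the TYK2 2 h array for Cish (range -0.14 to 0.48), Mir680-1 (-0.26 to 0.87), Socs1 (-0.11 to 0.14), Socs3 (-0.13 to 0.37), Srsy (-0.23 to 1.13) and Cpa3 (-1.02 to 0.000618), and without the TYK2 8 h array for Ccl3 (-1.43 to 0.0547), Il2ra (-0.14 to 0.0454), Lrrc32 (-0.43 to 0.0342) and Mcm3 (-0.20 to 0.0311). The cause of these changes was not tested. In at least 1 setting the sign also turned for Irf7 (-0.22 to 0.06), Stat2 (-0.09 to 0.15), Oasl2 (-0.37 to 0.02), Stat3 (-0.09 to 0.02) and Ifnar1 (-0.02 to 0.05), and for 9 of the 20 list medians recomputed, among them immediate early genes (-0.02 to 0.21), STAT5-induced genes (-0.10 to 0.08) and type I interferon genes (-0.19 to 0.00035). No paired analysis was possible because every array carries the same replicate number. Signal over background limits what can be said of genes below the filter.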

Other observations

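Genes of the oxidative phosphorylation complexes were mostly above the comparators with the TYK2 inhibitor, but not above all other inhibitors. Their mean level at 2 h was 10.88 with TYK2, 10.65 with JAK1, 10.73 with JAK2 and 10.80 and 10.86 with JAK3. At 8 h it was 10.70 with TYK2, 10.44 with JAK1, 10.71 with JAK2 and 10.70 with each JAK3 inhibitor. Of 25 tested, 22 had a positive difference over both times, with a median of 0.09, 8 were higher at an unadjusted p under 0.05 (2.05% of all genes were), and Cox7a2, a subunit of cytochrome c oxidase, passed at 2 h. Cox7a2 read 10.35 with the TYK2 inhibitor, 9.80 with JAK1/2 and 10.09 with PAN at 2 h, and 10.11, 9.75 and 9.73 at 8 h (limma adjusted p = 0.0182 at 2 h). Without the JAK1/2 array its 2 h difference went from 0.41 to 0.26 and the call was lost (adjusted p = 0.469), as after quantile normalization (0.0756). Ndufa1, a subunit of complex I, read 7.99, 7.55 and 7.66 at 2 h and 7.94, 7.25 and 7.46 at 8 h, a difference of 0.49 over both times that did not pass (adjusted p = 0.882).

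Cytosolic ribosomal protein genes and small nucleolar RNAs were grouped by symbol after the data were seen. Of 58 ribosomal protein genes, 53 had a positive difference, with a median of 0.11 (0.15 against JAK1/2 and 0.07 against PAN), and 4 passed at 2 h, where 0.366% of all genes were higher. Without the JAK1/2 array the calls of Rps21 (0.47 to 0.26, adjusted p = 0.471), Rps29 (0.31 to 0.20, 0.410) and Rpl13 (0.35 to 0.18, 0.742) were lost, and all 4 were lost after quantile normalization (0.0783 to 0.143). Rplp1, a protein of the ribosomal stalk, read 13.68 with the TYK2 inhibitor, 13.31 with JAK1/2 and 13.48 with PAN at 2 h, and 13.67, 13.58 and 13.47 at 8 h. Of 48 small nucleolar RNAs, 38 were positive, with a median of 0.09 (0.19 against JAK1/2 and 0.03 against PAN), beside -0.004 over all genes. Their mean level at 2 h was 9.17 with TYK2, 8.95 with JAK1, 9.05 with JAK2 and 9.09 and 9.16 with JAK3. At 8 h it was 8.86 with TYK2, 8.84 with JAK1, 8.83 with JAK2 and 8.98 and 8.92 with JAK3. At 2 h, 3 were higher and 1 lower, where 0.366% of all genes were higher and 0.697% lower. Without the JAK1/2 array the calls of Snora16a (0.44 to 0.37) and Snord49b (0.34 to 0.20) were lost. That of Snord49b was also lost after quantile normalization. Snord104 read 11.50, 10.98 and 11.11 at 2 h and 11.15, 10.80 and 10.82 at 8 h (limma adjusted p = 0.00056 at 2 h), while Scarna13 read 11.37, 11.97 and 11.86 and then 11.52, 11.68 and 12.08 (adjusted p = 6.79e-06 at 2 h).

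Among the 82 genes lower at 2 h, the JAK2 inhibitor was the lowest of the other 6 in 50, or 61%, beside 33% of all genes tested. At 8 h it was the lowest in 2.44%, beside 9.22% of all genes, and the highest in 47.6%, beside 44.2%. The JAK1 inhibitor was the highest of the other 6 at 2 h in 47.6% of the 82, beside 24.2% of all genes. Calling these genes used the JAK1/2 and PAN values, so these shares are a description.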
